A study of Mus musculus with 50 samples.

Results

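The transcripts described here encode the proteins of the cytosolic ribosome, measured in testis and spinal cord of wobbler mice. Members were the array probes whose single gene symbol begins with Rpl or Rps as a ribosomal protein gene, including Rplp0 to Rplp2 and Rpsa. S6 kinases, pseudogenes and genes named as "-like" paralogs were left out. The rule gave 88 probes of 56 genes, out of 20355 probes and 9930 genes with a symbol, with 52 probes of 34 genes for the large subunit and 36 probes of 22 genes for the small subunit. The rule used names only, and no measured value.

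Wobbler is a recessive mutation of the mouse in Vps54, which encodes a subunit of a complex that tethers vesicles at the Golgi, and it causes motor neuron loss and malformed sperm heads. All mutant RNA came from wr/wr mice and all reference RNA from wild-type (wt) mice, and no treatment, age or genetic background is given in the sources used here. Testis RNA of 10 wr/wr mice, numbered 5905, 5906, 5907, 5995, 5997, 6065, 6069, 6163, 6335 and 6493, was hybridised mouse by mouse on 4 arrays each, with a different dye for each RNA, against 1 pool of wild-type testis RNA. Spinal cord was measured as 3 wr/wr RNAs, pool1 and pool2 from 4 mice each and the cord of mouse 5995, against 1 pool of wild-type cord RNA on 10 arrays. The mutant RNA was in Cy5 on as many arrays as in Cy3. Sample labels put 10 wild-type mice in a reference pool and the labelling protocol puts 6 there. Because each pool stands for the wild type, the tests leave out the spread among wild-type mice.

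A ribosome is built from ribosomal RNAs and about equal amounts of each ribosomal protein, so that the genes of both subunits are usually expressed together. Their mRNAs are among the most abundant of a cell and carry a run of pyrimidines at the very start, the TOP motif, through which mTOR signalling and LARP1 control their translation. In the testis, germ cells make new protein through growth and meiosis, while transcription stops as spermatids condense their nuclei. Levels of whole organs were measured, so a smaller share of cells of one type and less RNA per cell cannot be told apart. Ribosomal protein genes also have many near-identical processed copies in the mouse genome, and the probes' power to separate them was not tested.

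TOP transcripts are known to start within a pyrimidine run. A 60-base stretch around the annotated start is shown for genes chosen by their testis gene means. Each stretch holds 45 bases before the annotated RefSeq start and 15 from it on (assembly GRCm38.p6), written 5′ to 3′ on the gene's strand, with the pyrimidine run in capitals. The first 6 genes have a run and the highest testis gene means of such genes in their subunit. Not in the promoter table, and so not eligible, were 8 member genes: Rpl30, Rpl32, Rpl7, Rpl8, Rplp1, Rps14, Rps20 and Rps29. Rps14 had the highest testis gene mean of all members, 0.38. The last 3 have no run by the rule used here. Rpl11 and Rpl9 had the highest testis gene means among such genes and Rpl22 the lowest. A run had to reach into the 5 bases on either side of the annotated start, a definition chosen after the sequences had been read. That of Rpl10a lies wholly before the start. Annotated starts were not checked against the starts used in these tissues. A gene without a run here may therefore still carry the TOP motif.
Rpl31 (chr1:39367806-39367865, + strand): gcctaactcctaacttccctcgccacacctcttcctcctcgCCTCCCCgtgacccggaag
Rplp2 (chr7:141447606-141447665, + strand): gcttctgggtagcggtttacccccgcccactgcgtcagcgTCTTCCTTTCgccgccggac
Rpl10a (chr17:28328426-28328485, + strand): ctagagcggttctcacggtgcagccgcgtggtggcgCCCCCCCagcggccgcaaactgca
Rps15a (chr7:118116133-118116192, - strand): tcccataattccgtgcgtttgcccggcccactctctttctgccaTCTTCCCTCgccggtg
Rps6 (chr4:86857353-86857412, - strand): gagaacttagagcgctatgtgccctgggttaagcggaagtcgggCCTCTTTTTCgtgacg
Rps24 (chr14:24490633-24490692, + strand): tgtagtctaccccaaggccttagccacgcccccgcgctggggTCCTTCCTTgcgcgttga
Rpl11 (chr4:136053379-136053438, - strand): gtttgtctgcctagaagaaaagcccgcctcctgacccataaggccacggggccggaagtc
Rpl9 (chr5:65391417-65391476, - strand): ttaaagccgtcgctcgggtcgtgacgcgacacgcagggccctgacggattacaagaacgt
Rpl22 (chr4:152325681-152325740, + strand): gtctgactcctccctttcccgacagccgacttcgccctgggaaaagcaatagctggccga
A run of at least 6 C or T letters that reached into the 5 bases on either side of an annotated start was found in 23 of the 48 member genes that matched the promoter table (47.9%), against 23.0% of all 27025 genes in it. The letters CGGAAG, the core bound by ETS factors such as GABP, were searched on both strands of the 300-base windows, and their complement can overlap a pyrimidine run. They occurred in 34 member genes (70.8%) and in 18.8% of all genes. Within the bases printed above, this core lies in Rpl31, Rps6 and Rpl11. Among member genes with a run, 18 of 23 had a probe called higher in testis and the median of the gene means was 0.23 on the log2 scale. Without a run, 16 of 25 had such a probe and the median was 0.22. Without a run, Rpl11 and Rpl9 had the highest gene means, 0.35 and 0.34. With a run, Rpl31 (0.36) and Rplp2 (0.34) were highest. These genes were picked as the highest of each set, so their closeness cannot show whether the run matters.

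Values below are log2 ratios of wr/wr over wild type, centred on each array's median and averaged over both dye orientations of an RNA. This direction is likely because the labels list the mutant as the first channel, but no source states it. Under a red over green reading, a difference between mutant and wild type would change sign with the dye. Testis means of Ptgds were -1.52 with the mutant in Cy5 and -1.72 in Cy3, and those of Hsd17b3 -0.57 and -0.52. Cord medians of microglia markers were 0.65 and 0.66, whereas the cord member medians were 0.03 and -0.44. How many other genes kept their sign was not counted. If the ratios ran the opposite way on every array, every sign would turn. If they were red over green (Cy5 over Cy3) on every array, the arrays with the mutant RNA in Cy3 would turn and the others would not. An alternative with those arrays turned, added after seeing the data, is given beside the results. As the ratios are read here, turning takes the Cy3 mean from the Cy5 mean, so the turned values follow the gap between the dyes. The dye weighed more on an array than the animal did: pairs of different testis mice in the same dye had a median Spearman correlation across probes of 0.196, and pairs of 1 mouse in opposite dyes of 0.109. In cord these medians were 0.239 and -0.0795. For testis mice 6065, 5905 and 5997 the means of both orientations correlated at -0.311, -0.223 and -0.113 across all probes, and for the other 7 mice at 0.0627 to 0.366. Of the members, 76 had a value on all 40 testis arrays and 74 on all 10 cord arrays, and 79 could be tested in cord.

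In wr/wr testis, ribosomal protein transcripts of both subunits were modestly higher than in the wild-type pool. Of the 88 probes, 49 rose (adjusted p under 0.05) and 0 fell, where 7.28% of the 20218 probes tested on the array rose and 5.06% fell. The median member ratio was 0.23, against -0.01 over all probes, and 77 members lay above 0. The largest called ratio was 0.39, a 1.31-fold difference. In 40 of the 56 genes at least 1 probe was called, a count that favours the 24 genes with several probes. With probes averaged per gene, 36 of 56 genes were called higher. The share over all genes is not given here.

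The member median differed between mice, and the parts of the animal and of its arrays in this were not tested. Mouse 5907 had the highest member median, 0.47, followed by 0.33 in 6069, 0.32 in 5995, 0.30 in 6163 and 0.29 in 6493. Below these came 5906 with 0.26, 6065 with 0.25 and 6335 with 0.17. The lowest medians were 0.01 in mouse 5905 and -0.04 in mouse 5997. In 8 mice between 84.1% and 90.8% of members lay above 0, while 52.3% did in mouse 5905 and 33.0% in mouse 5997. Thus 16 members were above 0 in every mouse, against 3.31% of all probes.

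**Figure D1:**
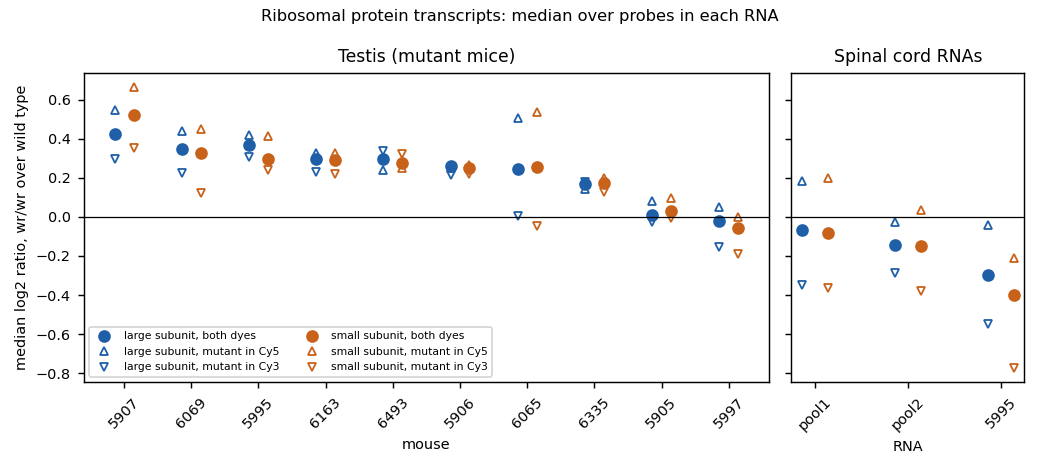
Median log2 ratio of the large-subunit (blue) and small-subunit (orange) member probes in each testis mouse (left) and spinal cord RNA (right); filled circles are the mean of both dye orientations, open triangles 1 orientation each. Mice other than 5905 and 5997 lie between 0.17 and 0.52 in both subunits, these 2 mice lie near 0, and in cord the Cy5 and Cy3 triangles are far apart.

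The dye orientation moved with these values. Over all members the median was 0.32 on arrays with the mutant RNA in Cy5 and 0.13 with it in Cy3. Mouse 6065 had 0.54 in Cy5 and -0.02 in Cy3, the widest gap among the mice. All 49 called probes were above 0 in each orientation, but 46 of them were called from the Cy5 arrays alone and 16 from the Cy3 arrays alone. Without mouse 6493 the number of members called higher was 24, and without mouse 6069 it was 29. Without mice 5905, 5997 and 6065, whose dye orientations correlated below 0, it was 67. A core of 23 probes was called whichever mouse was left out. Without mouse 6493 the medians of the large and small subunit were 0.23 and 0.23, beside 0.24 and 0.23 with all mice. Shares of all probes called under these alternatives are not given here, so the counts cannot be set against the array. With the ratios read as Cy5 over Cy3, so that the Cy3 arrays turn, 7 members were called higher and 0 lower, and the testis medians were 0.07 in the large and 0.10 in the small subunit.

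The 2 subunits had similar ratios. In testis 31 of 52 large-subunit probes and 18 of 36 small-subunit probes rose, with medians of 0.24 and 0.23. The large median minus the small median ranged from -0.09 in mouse 5907 to 0.07 in mouse 5995, with a mean over mice of 0.003 ± 0.043 (SD, n = 10). In cord this difference was 0.02 in pool1, 0.01 in pool2 and 0.10 in mouse 5995.

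**Figure D2:**
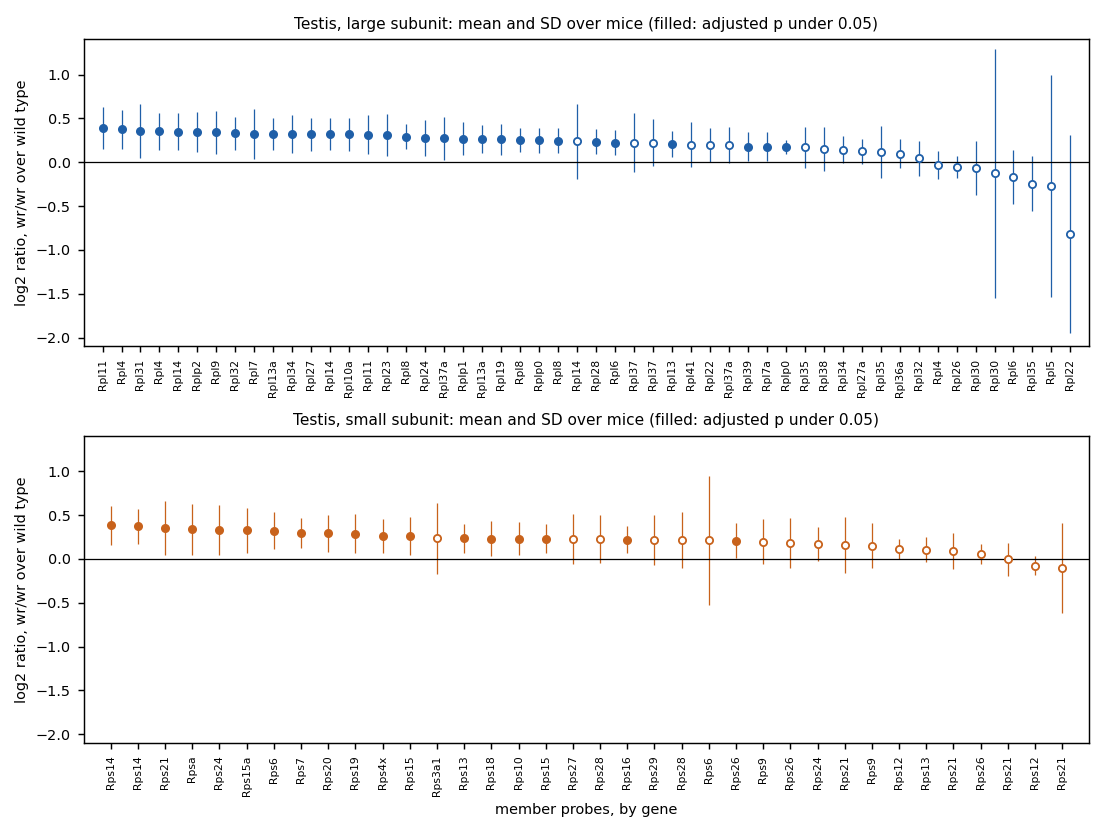
Mean log2 ratio in testis (y axis) of every member probe, ordered by its mean and labelled by gene, for the large (top) and small (bottom) subunit; bars are the SD over 9 or 10 mice and filled points have an adjusted p under 0.05. Most probes form a shallow slope between 0.1 and 0.4, and the lowest ones, such as Rpl22, have the widest bars.

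Rps14, on the small subunit's platform near the exit of the mRNA, had the highest small-subunit ratios. Its probe 19645 ranged over mice from 0.05 through a median of 0.40 to 0.69, above 0 in all 10, with a mean of 0.37 ± 0.20 (SD, n = 10; adjusted p = 0.0114). The other Rps14 probe, 19586, averaged 0.38 ± 0.22 (n = 10; adjusted p = 0.0137) and was above 0 in 9 mice. By limma on the Cy3 arrays alone, probe 19645 was called (adjusted p = 0.0371) and probe 19586 was not (adjusted p = 0.369). Rpsa, also known as the laminin receptor and on the same platform, ran from 0.07 through 0.22 to 1.07, the last in mouse 6065, and rose by 0.34 ± 0.29 (n = 10; adjusted p = 0.0310). Rps26 and Rps28 complete the platform list on the array. Rps26, which contacts the mRNA upstream of the start codon, rose with probe 706 (0.21 ± 0.20, n = 10; adjusted p = 0.0495) and not with probes 2551 (0.18) and 6348 (0.06). Rps28 averaged 0.22 and 0.23 with its probes, neither called. In all, 4 of 8 platform probes rose.

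Rpl8, Rpl32 and Rpl27 are large-subunit proteins. Rpl8, which lies close to the peptidyl transferase centre, rose with all 3 of its probes. Probe 15392 had the smallest adjusted p of the members, with values from 0.11 through 0.31 to 0.55 and a mean of 0.29 ± 0.14 (n = 10; adjusted p = 0.0101). The other Rpl8 probes averaged 0.25 and 0.24. Rpl27 ranged from -0.02 through 0.30 to 0.55 and averaged 0.32 ± 0.19 (n = 10; adjusted p = 0.0146), with mouse 5997 alone below 0. For Rpl32, probe 7584 rose by 0.33 ± 0.19 (n = 10; adjusted p = 0.0136), from 0.02 to 0.65, while probe 6049 averaged 0.04 ± 0.20 and was above 0 in 4 mice.

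The P stalk is the flexible arm of the large subunit that recruits elongation factors and stimulates their GTPase activity. All 4 probes of its genes on the array, Rplp0, Rplp1 and Rplp2, rose, with a median of 0.26. Rplp2 ranged from -0.03 in mouse 5997 through 0.33 to 0.66 in mouse 5907 and averaged 0.34 ± 0.22 (n = 10; adjusted p = 0.0174). Rplp1 averaged 0.27 ± 0.19 (n = 10; adjusted p = 0.0205), above 0 in every mouse and highest, 0.72, in mouse 6065. Rplp0, the scaffold that holds the other stalk proteins, averaged 0.25 ± 0.14 with probe 7366 and 0.17 ± 0.08 with probe 7411 (n = 10 each; adjusted p = 0.0146 and 0.0152). Probe 7411 had the smallest SD of the called members named here.

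Rpl5 and Rpl11 bind the 5S ribosomal RNA and, outside the ribosome, the p53 regulator Mdm2. Rpl11 probe 19154 had the highest mean of all members. Its values ran from -0.06 in mouse 5997 through a median of 0.45 to 0.79 in mouse 5907, with a mean of 0.39 ± 0.24 (n = 10; adjusted p = 0.0155). The second Rpl11 probe averaged 0.31 ± 0.23 (adjusted p = 0.0202). Rpl5 was measured by 1 probe, which was not called. Its median over mice was 0.16 and its mean -0.28 ± 1.27, because mouse 5907 stood at -3.69 with a ratio over 15 in size on 1 array. With such values treated as missing the mean was 0.16.

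Proteins that line or rim the exit tunnel, through which the nascent chain leaves, were represented by 10 probes of 6 genes, and 5 rose (median 0.17). Rpl4 rose with probe 19683 (0.37 ± 0.22, n = 10; adjusted p = 0.0146), above 0 in all 10 mice, and with probe 7182 (0.35 ± 0.21; adjusted p = 0.0147). Its probe 6522 averaged -0.03 ± 0.16 and was above 0 in 4 mice, 0.40 below the highest. Rpl31, at the tunnel's rim, ran from -0.19 through 0.44 to 0.79 and rose by 0.36 ± 0.31 (n = 10; adjusted p = 0.0307). Rpl19 and Rpl39 also rose (0.26 and 0.18), and Rpl26 averaged -0.05 ± 0.13 with 2 mice above 0. For Rpl35, no probe was called and the means were 0.17, 0.12 and -0.24.

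Further proteins of the large subunit with high ratios were Rpl14, Rpl10a and Rpl9. Rpl14 probe 5427 was above 0 in all 10 mice, from 0.03 to 0.69, with a mean of 0.35 ± 0.21 (n = 10; adjusted p = 0.0153). A second Rpl14 probe averaged 0.32 and also rose, while the third had the same sign but an SD of 0.43 and was not called. Rpl10a averaged 0.32 ± 0.19 (n = 10; adjusted p = 0.0146), with 9 mice above 0 and mouse 5905 at 0.00. Rpl9 averaged 0.34 ± 0.24 (n = 10; adjusted p = 0.0196), yet its mean was 0.68 in Cy5 and 0.00 in Cy3.

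Among small-subunit proteins, Rps6, the substrate of the S6 kinases, rose by 0.32 ± 0.21 with probe 6994 (n = 10; adjusted p = 0.0173). Values ran from -0.10 in mouse 5997 through 0.34 to 0.67 in mouse 5907. Rps24 probe 1591 rose by 0.33 ± 0.29 (adjusted p = 0.0327) and Rps15a by 0.33 ± 0.26 (adjusted p = 0.0250), with mean Rps15a ratios of 0.13 in Cy5 and 0.52 in Cy3. The Cy3 value was thus the higher one, unlike the member medians. Rps9, at the mRNA entry, had probe means of 0.20 and 0.15, neither called.

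Mutations in 14 of the genes on the array that encode ribosomal proteins cause Diamond-Blackfan anemia in people, a failure of red cell formation. Of their 21 probes 9 rose, 0 fell and the median was 0.22, beside 0.23 over all members. Rps19, the most often mutated of them, ranged from -0.01 through 0.28 to 0.62 and rose by 0.29 ± 0.22 (n = 10; adjusted p = 0.0245). Rps7 rose by 0.29 ± 0.17 (adjusted p = 0.0147). Genes on the X chromosome, which is silenced in spermatocytes during meiosis, were Rps4x, Rpl39 and Rpl36a. Rps4x rose by 0.26 ± 0.19 (n = 10; adjusted p = 0.0222), above 0 in 9 mice, and Rpl39 by 0.18 ± 0.17 (adjusted p = 0.0470). Rpl36a averaged 0.10 ± 0.16 and was not called.

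**Figure D3:**
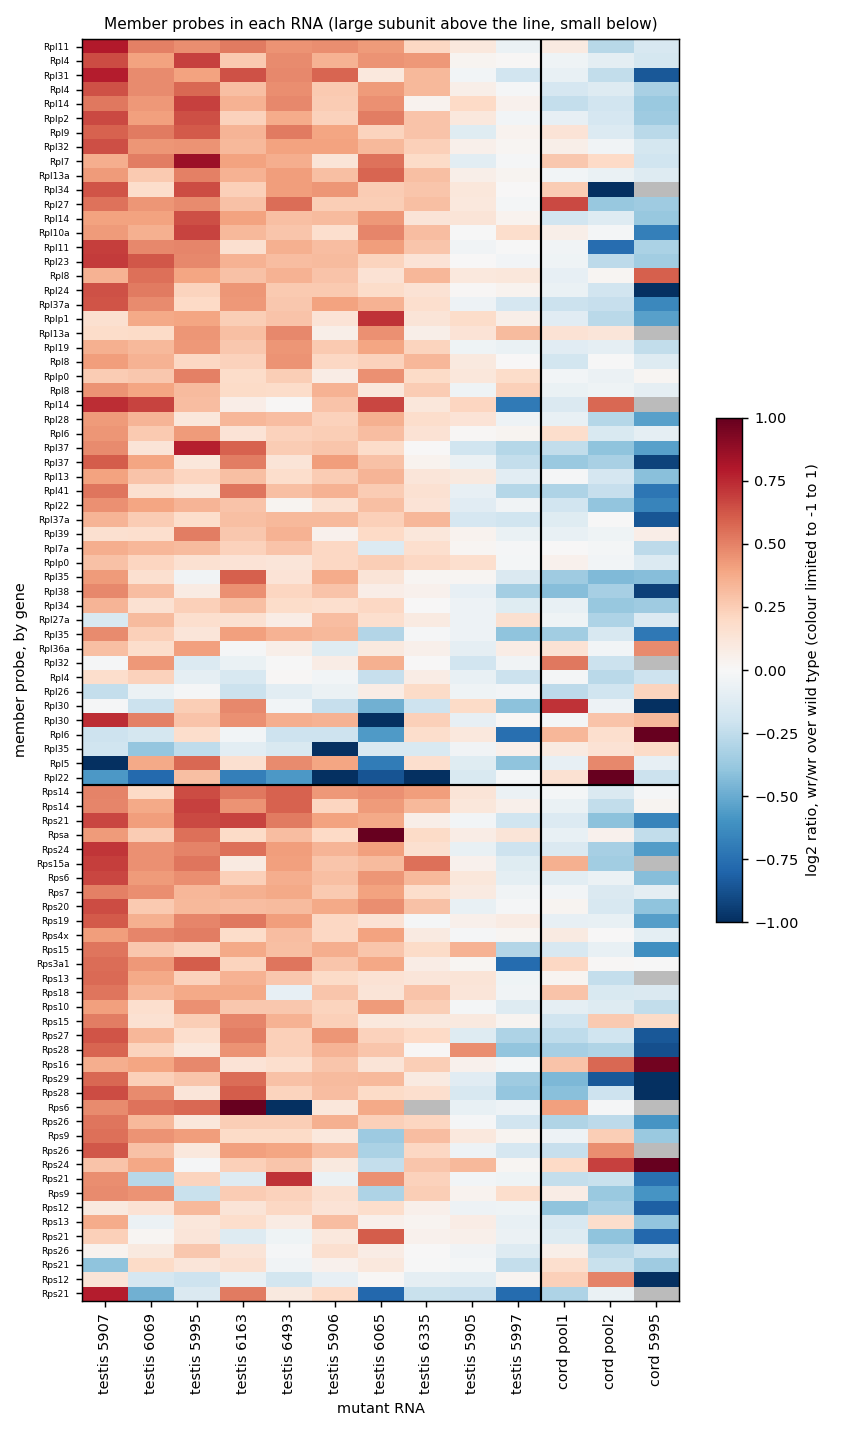
Log2 ratio of each member probe (one line per probe, labelled by gene, ordered by testis mean within the large and then the small subunit) in each testis mouse and cord RNA; red is above and blue below wild type, the colour scale stops at -1 and 1, and grey marks no value in both dyes. Red fills most of the first 8 testis columns, the columns of mice 5905 and 5997 are pale, and the cord columns are mostly blue.

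The other 11 members lay below 0 in testis and none was called. Rpl22 probe 15471 had the lowest mean, -0.82 ± 1.13 (n = 10; adjusted p = 0.116), from -3.81 in mouse 5906 through a median of -0.63 to 0.30 in mouse 5995. Without values over 15 in size its mean was -0.39, and 9 of 10 mice were below 0. The other Rpl22 probe, 15289, averaged 0.20 ± 0.19 (adjusted p = 0.0519), so the probes of this gene differed by 1.02. Rpl22 has a paralog, Rpl22l1, whose ratio was 0.06 ± 0.14 (not called).

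Several other genes had probes that disagreed. Rps21 was measured by 5 probes, of which 6517 rose (0.35 ± 0.31, n = 10; adjusted p = 0.0322), with values from -0.20 to 0.67. The other Rps21 probes averaged 0.16, 0.09, -0.01 and -0.10. Rpl6 had means of 0.22, called higher, and -0.17, and Rps12 of 0.12 and -0.07, neither called. The Rpl30 probes averaged -0.07 and -0.13; for the second, probe 14725, mouse 6065 stood at -4.11, and without values over 15 in size the mean was 0.30 (adjusted p = 0.0226). Among the 24 genes with several probes, 6 had every probe called, 11 some and 7 none.

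Genes that work with the ribosome but are no members were counted by list. Of the 5 "-like" paralogs measured, Rps27l (0.25 ± 0.18; adjusted p = 0.0225) and Rpl36al (0.22 ± 0.20; adjusted p = 0.0410) rose, while Rpl39l, a paralog of Rpl39 expressed in male germ cells, averaged 0.14 ± 0.18 and did not pass. Among other transcripts that begin with a TOP motif, 7 of 19 probes rose and the median was 0.08. The largest were Eef1b2 (0.29 ± 0.18), Eef1a1 (0.27 ± 0.20), both of the elongation factor complex that delivers aminoacyl-tRNA, and Nap1l1 (0.23 ± 0.14), a histone chaperone. Of proteins fused to or bound at the ribosome, Tpt1 rose (0.27 ± 0.18) and Fau, Naca and Btf3 did not pass.

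Ribosome assembly factors were close to 0 as a list, with 3 of 26 probes higher, 1 lower and a median of 0.03. Nucleolin (Ncl) rose by 0.19, the rRNA methyltransferase fibrillarin (Fbl) by 0.12 and Gar1, of the pseudouridylation complex, by 0.14, while Rrp9 fell by 0.13. None of the 8 probes for RNA polymerase I and its factors was called (median 0.00), and 1 of 27 for regulators of growth, the transcription factor Yy1 at 0.13, was. None of the 5 S6 kinase probes was called (median -0.09). Their differences from the member list were not tested.

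Markers of other testis cells also differed. Of 13 Sertoli probes tested, 6 rose and 0 fell. Their median per mouse ran from -0.03 in mouse 5997 and 0.01 in mouse 5905 to 0.39 in mouse 6065. Mice 5997 and 5905 had the lowest member medians and also the lowest spermatocyte medians, -0.04 and 0.01. Mouse 6065, with the highest Sertoli median, had a member median of 0.25. Cst12, Ctsl and Clu rose by 0.72, 0.44 and 0.39. Below 0 and not called were both Trf probes (-0.16 and -0.02), Rhox5 (-0.01) and Sox9 probe 18047 (-0.14). The other Sox9 probe rose by 0.19. Of 12 Leydig probes 0 rose and 4 fell, with medians per mouse from -0.24 to -0.02. Of 16 macrophage and microglia probes 0 rose and 5 fell (Cd68, C1qa, C1qc, Ctss and 1 Lyz2 probe), with a median of -0.05 and medians per mouse from -0.28 to 0.03. Spermatogonium probes had a median of -0.08 (0 of 5 called), spermatocyte probes 0.09 (3 higher and 1 lower of 9) and spermatid probes 0.03 (1 lower of 19). The part of cell composition in the ribosomal protein ratios was not tested.

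In wr/wr spinal cord the same transcripts lay mostly below the wild-type pool, but no probe passed the test. Of 79 members tested, 0 were called in either direction, as were 0.0% of the 17055 probes on the array, with limma. At an unadjusted p under 0.05, 2 members were higher and 9 lower, and 8.65% of all probes passed; the smallest adjusted p was 0.542, for members and for all probes. The member median was -0.17, against 0.00 over all probes, with 67 members below 0. In all 3 RNAs, 44 members were below 0 and 4 above, where 20.7% and 18.5% of all probes were.

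The cord values depended on the dye. On Cy5 arrays the member median was 0.03 and on Cy3 arrays -0.44. By RNA it was 0.20 and -0.35 in pool1, -0.01 and -0.33 in pool2, and -0.14 and -0.64 in mouse 5995. Averaged over dyes these came to -0.07, -0.15 and -0.35, so every cord RNA was below 0 and mouse 5995, with 1 array per dye, was lowest. With the Cy3 arrays turned (Cy5 over Cy3) the cord medians were 0.22 in the large and 0.30 in the small subunit. The sign of the cord member medians thus rests on the reading of the ratios. As read here, the microglia markers had cord medians of 0.65 in Cy5 and 0.66 in Cy3. In the testis the same mouse had a member median of 0.32.

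Rps29, a small zinc-binding protein of the small subunit's head, was lowest, at -0.45 in pool1, -0.85 in pool2 and -1.39 in mouse 5995 (mean -0.89 ± 0.47, n = 3). Rps28 had -0.42, -0.21 and -1.36 (mean -0.66 ± 0.61) with probe 8318 and a mean of -0.50 with probe 7870. Rps12 probe 18638 averaged -0.51 ± 0.26, with all 3 RNAs below 0. On the large subunit, Rpl38, known for its part in translating Hox mRNAs, had -0.43, -0.33 and -0.94 (mean -0.56 ± 0.33). Rpl37 probe 10889 averaged -0.54, Rpl24, at the bridge between the subunits, -0.49 and Rpl41 -0.42. In each of these the RNA of mouse 5995 was the lowest, and adjusted p was between 0.542 and 0.561. A fit on all 10 arrays with a dye term and the RNA as a random block called Rpl38 (-0.50) and Rps12 probe 18638 (-0.46) lower and 0 members higher. Arrays of 1 RNA correlated at only 0.0386 in that fit, so repeat arrays of 3 RNAs counted almost as separate replicates. Its share of all probes called is not given here.

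Few members lay above 0 in cord. Rps24 probe 16562 had 0.20, 0.69 and 1.08 (mean 0.66 ± 0.44), whereas Rps24 probe 1591 averaged -0.35. Rps16 had 0.28, 0.57 and 0.96 (mean 0.61 ± 0.34) and was above 0 in both dyes, with 0.86 in Cy5 and 0.35 in Cy3. Rpl22 probe 15471 averaged 0.40, Rpl36a 0.20, Rpl30 probe 14725 0.19, Rps15 probe 16703 0.08 and Rps3a1 0.07. For Rpl6 probe 468 the mean of 3.79 ± 6.14 rests on 1 ratio over 15 in size, and without it the probe could not be tested. None of these had an adjusted p below 0.542.

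By role, cord medians were -0.12 for the P stalk, -0.12 for Rpl5 and Rpl11, -0.16 for the exit tunnel, -0.14 for the platform, -0.29 for the Diamond-Blackfan genes and 0.00 for the X-linked genes. The 4 "-like" paralogs had -0.47 and the other TOP transcripts -0.10. Microglia markers had a median of 0.63 and oligodendrocyte markers of -0.40, with all 7 of the latter below 0 and none called. Oligodendrocyte medians per RNA were -0.41 in pool1, -0.34 in pool2 and -0.66 in mouse 5995. The ribosomal protein median was also lowest in mouse 5995, but it was higher in pool1 (-0.07) than in pool2 (-0.15). Mouse 5995 also had the lowest microglia (0.55) and neuron (-0.07) medians and the highest astrocyte median (0.27). The part of cell composition in the cord ratios was not tested.

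Testis and cord ratios were then set against each other in 1 fit over the 13 RNAs. Of 79 members, 45 were higher in testis than in cord and 1 lower, where 10.8% and 10.4% of 17005 probes were, and the median difference was 0.43. In 24 members every testis mouse was above every cord RNA, against 7.57% of all probes, and in 1 every mouse was below (6.89%). Rps29 had the largest difference, 1.11 (adjusted p = 0.00406), although its testis ratio of 0.22 ± 0.28 was not called. Next came Rps28 probe 8318 (0.88), Rpl24 (0.76), Rpl37 probe 10889 (0.76), Rps21 probe 6517 (0.76) and Rpl31 (0.75), with adjusted p from 0.0114 to 0.0220. The 3 members with the smallest differences were Rpl26 (0.03), Rpl36a (-0.10) and Rpl8 probe 15392 (0.11). Rps24 probe 16562 was the one called lower in testis, with a difference of -0.49 (adjusted p = 0.0476).

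These tissue calls rest on a spread pooled over both tissues, and cord RNAs varied more, with a median SD over probes of 0.263 against 0.163 in testis. With each tissue weighted by its own spread, an alternative chosen after seeing the data, 2 members were higher in testis (Rps29, adjusted p = 0.0354, and Rps12 probe 18638, adjusted p = 0.0265) and 0 lower, where 1.9% and 2.36% of all probes were. Pairing each cord RNA with the testes of its own mice (the replicate block) left 0 in either direction, and 12 were higher without the cord of mouse 5995. From the Cy5 arrays alone 4 members were higher in testis and from the Cy3 arrays alone 54. With only the cord Cy3 arrays turned, 1 member was higher and 1 lower in testis, and with the Cy3 arrays of both tissues turned 0 were higher and 3 lower. Apart from the weighting by own spread, shares of all probes called under these alternatives are not given here. A change in the member count therefore cannot be told apart from one over the whole array.

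**Figure D4:**
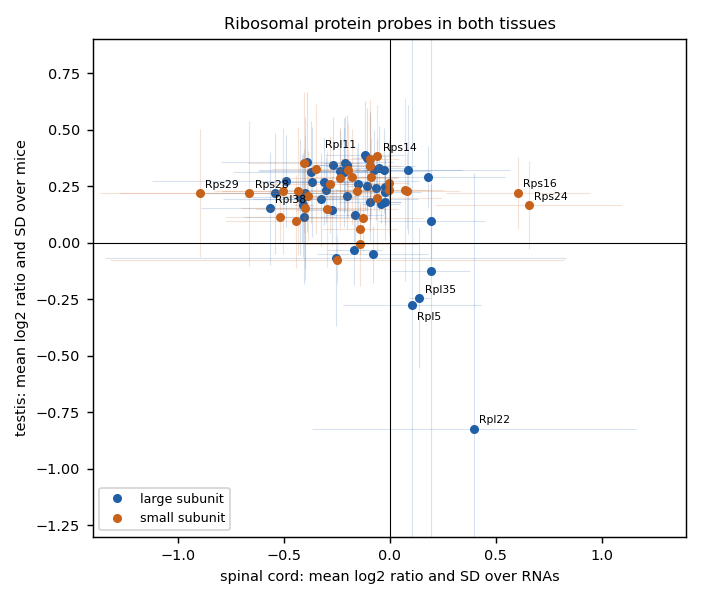
Mean log2 ratio of each member probe in spinal cord (x axis, SD over 3 RNAs) and testis (y axis, SD over 10 mice), large subunit blue and small subunit orange; Rpl6 probe 468, at 3.79 in cord, lies outside the axes and vertical bars of a few probes run beyond the frame. Most points lie in the upper left of the plot, with Rps29 farthest left and Rps16 and Rps24 apart on the right.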

How the data were processed

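The authors deposited 1 log2 ratio per probe and array; how background and dye differences were corrected before that is not given in the sources used here. No scanner intensities were used. Arrays were centred on their median. Arrays of 1 RNA and dye were averaged, then both dyes, so that an RNA is 1 replicate. Probes needed both dyes in at least 8 of 10 testis mice or in all 3 cord RNAs. Means were tested against 0, and tissues against each other, with the moderated test of limma 3.58.1 (R 4.3.3, lmFit and eBayes; Benjamini-Hochberg over all probes tested; threshold 0.05), after tests on simulated data. Ratios over 15 in size were kept: all were positive with the mutant RNA in Cy5 (364 in testis, 222 in cord) and negative with it in Cy3 (522 and 364), and no array was turned.

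Genes were named from the platform annotation: 14030 probes have 1 symbol, 5 several and 6320 none. A probe with several symbols was left out, as were 11 named Rpl or Rps by the rule (5 of them S6 kinases). Named with values are the marker genes, the highest and lowest members of each subunit and tissue, the largest and smallest tissue differences, genes whose probes disagree by 0.3 or more, the short role lists and the largest called genes of other lists. Members and lists were chosen with earlier results of these data known. The motifs were searched in RefSeq promoters of GRCm38.p6. Alternatives varied the dye, direction, centring, scaling, filters, extreme ratios, averaging, single RNAs and pairing. Across probes, deviations of a cord RNA and of its mice's testes correlated at 0.00842 (mouse 5995), -0.00673 (pool1) and -0.00179 (pool2), but the pairing comes from the same animals, per the labels. The number of arrays limits the precision.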

Additional observations from a re-analysis of the deposited data

Results flagged for a closer look

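In 10 of the 92 testis values examined, 1 mouse stood apart from the other 9, where chance gives about 1 in 20. Mouse 5997 was lowest for Rpl14 probe 3502 (-0.71), Rps15 probe 1786 (-0.29) and Rps3a1 (-0.77). Mouse 6065 was highest for Rplp1 (0.72), Rps21 probe 16331 (0.60) and Rpsa (1.07) and lowest for Rpl30 probe 14725 (-4.11). Mouse 5906 was lowest for Rpl22 probe 15471 (-3.81) and Rpl35 probe 7663 (-1.06), and mouse 5907 for Rpl5 (-3.69). The values for Rpl22, Rpl30 and Rpl5 each contain 1 ratio over 15 in size.

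The wr/wr ratio was higher in testis than in cord by the test of the difference for Rps29 (1.11), Rps28 probe 8318 (0.88), Rpl24 (0.76), Rpl37 probe 10889 (0.76), Rps21 probe 6517 (0.76) and Rpl31 (0.75). By limma, these calls rest on a spread pooled over both tissues: with each tissue weighted by its own spread Rps29 kept an adjusted p of 0.0354 and the other 5 had 0.0732 to 0.116. With the replicate block that pairs tissues of the same mice, 0 members were called.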

How the results depend on the processing

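In testis 49 of 88 members rose. The count was 47 to 51 without centring, with arrays scaled to one spread, with ratios over 15 in size missing and under both other filters. It was 60 on Cy5 arrays and 36 of 56 genes after averaging probes. With the mouse as random block it was 64, in a fit where arrays of 1 mouse correlated at 0.0781 and so counted almost separately. It was 17 on Cy3 arrays, 24 to 60 without 1 mouse (24 without mouse 6493, 29 without mouse 6069) and 67 without mice 5905, 5997 and 6065. Members called lower were 0 throughout, except 2 on Cy5 arrays (Rps12 probe 13232 and Rpl22 probe 15471). In cord the medians of the large and small subunit were 0.032 and 0.024 on Cy5 arrays, -0.42 and -0.44 on Cy3 arrays, and 0.22 and 0.30 with the sign of the Cy3 arrays turned. With the RNA as random block, where arrays counted almost as separate replicates, 2 members were called lower. Without any 1 RNA 0 were. In testis minus cord, 45 higher and 1 lower became 4 and 0 on Cy5 arrays, 14 and 0 with scaled arrays, 2 and 0 with each tissue weighted by its own spread, 0 and 0 with the replicate block that pairs tissues of the same mice, and 1 and 1 with cord Cy3 arrays turned, where Rps29 (-0.17), Rps28 (-0.14) and Rpl37 (-0.090) reversed. Without 1 RNA the counts ranged from 12 to 49 higher (12 without the cord of mouse 5995) and from 0 to 3 lower. With the Cy3 arrays of both tissues turned, an alternative added after seeing the data, 7 testis members were called higher and the testis median of the large subunit was 0.071. The sign of a turned testis value tells only which dye mean was larger. It was below 0 for Rps18 probe 167 (-0.025), Rpl8 (-0.0042 and -0.013), Rps15a (-0.20) and Rpl34 (-0.064), whose Cy3 means were the larger. The Rpl8 values near 0 mean that both dyes gave nearly the same ratio, and by limma these 2 probes were called in each dye alone. In testis minus cord 0 were higher and 3 lower. There Rps21 (-0.059), Rps29 (-0.23), Rps28 (-0.25), Rpl37 (-0.20), Rpl24 (-0.14) and Rpl31 (-0.064) reversed. The causes were not tested. Shares of all probes called are not given for most of these alternatives, so member counts cannot be set against the array. With 3 cord RNAs and no intensities, signal over background could not be assessed.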
